A study of Homo sapiens with 12 samples.

Results

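The 5 lysyl oxidases LOX, LOXL1, LOXL2, LOXL3 and LOXL4 and 2 lysyl hydroxylases, PLOD1 and PLOD3, were followed as single genes. They were found by their symbols among the 26475 gene symbols of the count files. No other lysyl hydroxylase was followed. All 7 were present and all 7 passed the filter on low counts, also when the filter was applied without the FMD_LO libraries. The cells were SUM159PT, a triple-negative breast cancer line of mesenchymal character, grown as xenografts in female NOD scid gamma mice, an immunodeficient strain that keeps its own fibroblasts, vessels and part of its myeloid cells. The mice were 8 weeks old when they received the cells and then ate either the fasting-mimicking diet for 4 days in a row each week or standard food. Antibodies to human CD44 and human CD24 were used to sort the tumours' cells into CD44-positive CD24-low and CD24-high cells, a sort meant to separate cancer stem cells from differentiated ones. The 12 libraries form 4 groups of 3: fasting-mimicking diet CD24-low (FMD_LO), control diet CD24-low (CTR_LO), fasting-mimicking diet CD24-high (FMD_HI) and control diet CD24-high (CTR_HI). The labels do not say whether the 3 libraries of a group came from different mice, so p-values measure the spread between these libraries.

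Collagen and elastin fibres gain their strength from covalent cross-links between lysine side chains. Inside the cell, lysyl hydroxylases add a hydroxyl group to lysines of the newly made collagen chain; outside it, lysyl oxidases, copper-dependent enzymes, turn lysine and hydroxylysine into aldehydes that then react with neighbouring chains. LOX and LOXL1 are secreted as proenzymes and activated by proteolysis, while LOXL2, LOXL3 and LOXL4 carry scavenger-receptor cysteine-rich domains ahead of the catalytic domain. In breast tumours LOX is known as a target of hypoxia-inducible factors and for its part in stiffening the matrix.

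Library totals were 17736610 to 18579816 counts in FMD_LO and 29049144 to 47587142 in the other groups, so the low counts of LOXL4 are the least certain values below. On the first principal component, with 57.4% of the variance, FMD_LO lay at -88.9 to -79.5 and the other 9 libraries at -2.35 to 46.1. Of the genes expected in SUM159, vimentin averaged 4820 to 5770 CPM in the 4 groups and the hormone receptor gene ESR1 0.273 to 0.577 CPM. CPM is the usual depth-scaled read count, with TMM-scaled library sizes; values are means ± SD with n = 3 per group, and log2 fold changes are given ± an approximate standard error. A gene was called when its Benjamini-Hochberg adjusted p from edgeR's quasi-likelihood test over all 15461 genes tested was below 0.05.

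The promoters of LOX, LOXL3 and LOXL4 are shown because these 3 genes were called between the diets in CD24-low cells. RefSeq windows of 250 bases before an annotated start (GRCh38.p14) were searched. The longest stretch of each gene's first window that lies in no GENCODE 29 exon is printed, 5′ to 3′ on the minus strand. Capitals mark the core of the hypoxia response element, ACGTG on either strand; a palindrome of the core counts once per strand. The stretches are chr5:122078361-122078509 for LOX, chr2:74553962-74554085 for LOXL3 and chr10:98268251-98268444 for LOXL4. The LOXL3 windows lie inside that gene, whose RefSeq 5′ end is at 74555702, and no bases before that end were searched.
LOX: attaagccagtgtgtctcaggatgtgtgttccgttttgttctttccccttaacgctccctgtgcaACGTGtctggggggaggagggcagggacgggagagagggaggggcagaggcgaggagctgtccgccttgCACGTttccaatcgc
LOXL3: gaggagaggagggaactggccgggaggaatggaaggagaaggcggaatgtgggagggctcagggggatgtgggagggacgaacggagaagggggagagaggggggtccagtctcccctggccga
LOXL4: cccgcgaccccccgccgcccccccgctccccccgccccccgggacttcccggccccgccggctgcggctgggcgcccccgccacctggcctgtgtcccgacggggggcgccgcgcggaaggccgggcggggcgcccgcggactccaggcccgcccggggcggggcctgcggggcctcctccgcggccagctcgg
The whole first LOX window held 4 cores, which begin 185, 116, 98 and 42 bases before the RefSeq start. The printed stretch shows 2 of them. LOX windows 2 and 3, which overlap each other at starts inside the gene, held 1 core each. At least 1 core is present in 18.5% of 35116 windows of the same length (several per gene for some genes), and 4 or more in 0.669%. No core is written in the windows of LOXL3, LOXL4, LOXL1, PLOD1 and PLOD3. No window of LOXL2 was searched. GENCODE 29 starts LOX farther out, so that 101 of the 250 bases are exon in that annotation. CACCTG, the E-box bound by ZEB and SNAI repressors, searched on both strands, occurs in 17.5% of all windows and, among the first windows of these genes, once in that of LOXL4. The AP-1 site TGANTCA (6.57% of windows) and the palindromic SMAD site GTCTAGAC (0.182%) are in none of the member windows. These matches describe the letters only.

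The first comparison asked what the diet changed in CD24-low cells. LOX, LOXL3 and LOXL4 rose in FMD_LO, each several-fold, while LOXL1, LOXL2, PLOD1 and PLOD3 were not called. Of the 7 genes 3 were called, all higher, where 16.4% of all genes tested were called, 12% higher and 4.33% lower. The median log2 fold change was 0.49 over the 7 genes and -0.03 over all genes.

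LOX (chromosome 5, 122063195 to 122078360, minus strand; positions here and below are GENCODE 29 on GRCh38), the founding lysyl oxidase, had 197, 142 and 111 CPM in FMD_LO, against 21.6, 29.4 and 12.6 CPM in CTR_LO. Every FMD_LO library lay above every CTR_LO library. LOX averaged 150 ± 43.6 CPM in FMD_LO and 21.2 ± 8.44 CPM in CTR_LO, and rose by a log2 fold change of 2.83 ± 0.29 (7.10-fold, 95% interval 4.56 to 11.1, edgeR adjusted p = 6.13e-05). The call held in all 19 alternatives run for it, with adjusted p up to 0.00381. The raw counts behind these values were 2053 to 3325 in FMD_LO and 423 to 1040 in CTR_LO, although the FMD_LO libraries were the smaller ones.

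LOXL3 (chromosome 2, 74532414 to 74555690, minus strand), which in mice is needed for palate and cartilage, had 52.1, 50.8 and 41.7 CPM in FMD_LO, against 6.53, 11.9 and 2.29 CPM in CTR_LO. The FMD_LO libraries lay close together, and the CTR_LO libraries were spread over a wide range below them. LOXL3 averaged 48.2 ± 5.69 CPM in FMD_LO and 6.91 ± 4.83 CPM in CTR_LO (log2 fold change 2.81 ± 0.45, edgeR adjusted p = 0.00152, up to 0.0301 over its alternatives). Without CTR_LO replicate 2, the highest of its group, the log2 fold change was 3.42. The gene shares 625 exon bases with HTRA2 on the other strand, and reads on that strand inside LOXL3 numbered 284 to 396 in FMD_LO and 539 to 908 in CTR_LO; only the strand of LOXL3 was counted above.

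LOXL4 (chromosome 10, 98247690 to 98268250, minus strand), another oxidase with scavenger-receptor domains, was near the limit of detection. It had 23, 20 and 17 counts in FMD_LO, against 5, 5 and 2 counts in CTR_LO. In CPM the group averages were 1.15 ± 0.222 in FMD_LO and 0.11 ± 0.0546 in CTR_LO, with no overlap (log2 fold change 3.36 ± 0.66, edgeR adjusted p = 0.00336, up to 0.0189 over its alternatives). At these counts the 95% interval of the fold runs over a wide span, 3.86 to 27.5, and with reads of both strands counted the log2 fold change was 2.43.

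LOXL1 and LOXL2 were the abundant members of the family in these libraries. LOXL1 (chromosome 15, 73925989 to 73952137, plus strand), which in mice maintains elastic fibres, had 324, 394 and 353 CPM in FMD_LO, against 335, 209 and 222 CPM in CTR_LO. CTR_LO replicate 1 lay inside the FMD_LO range, and the groups overlapped. The averages were 357 ± 35 CPM in FMD_LO and 255 ± 68.9 CPM in CTR_LO (log2 fold change 0.48 ± 0.22, edgeR adjusted p = 0.148), and without CTR_LO replicate 1 the gene was called (log2 fold change 0.72, adjusted p = 0.0444).

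LOXL2 (chromosome 8, 23297189 to 23425328, minus strand), which cross-links collagen IV of basement membranes, had 295, 249 and 186 CPM in FMD_LO, against 204, 172 and 145 CPM in CTR_LO. The groups overlapped through FMD_LO replicate 3, and the log2 fold change was 0.49 ± 0.18 (edgeR adjusted p = 0.0851). LOXL2 was called without FMD_LO replicate 3 (adjusted p = 0.0239), with DESeq2 (0.0417) and with a block for replicate number (0.0212). That block links libraries across diets, where like numbers were not seen to deviate together (correlation of deviations from group means -0.117 to 0.0824).

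The lysyl hydroxylases PLOD1 and PLOD3 differed less. PLOD1 (chromosome 1, 11934205 to 11975538, plus strand), the enzyme for lysines of the collagen helix, had 404, 374 and 286 CPM in FMD_LO, against 295, 261 and 303 CPM in CTR_LO. FMD_LO replicate 3 lay inside the CTR_LO range, the log2 fold change was 0.31 ± 0.14 (edgeR adjusted p = 0.143), and the gene was called without that replicate (adjusted p = 0.038). PLOD3 (chromosome 7, 101205977 to 101218420, minus strand), which also transfers galactose and glucose to hydroxylysine, had 151, 135 and 116 CPM in FMD_LO, against 104, 90.0 and 116 CPM in CTR_LO. Its groups lay just apart, at a lowest FMD_LO value of 116.3 and a highest CTR_LO value of 115.9 CPM, and it was not called (log2 fold change 0.38 ± 0.14, edgeR adjusted p = 0.0877). The 95% interval of its log2 fold change was 0.07 to 0.68. Groups without overlap in this direction were seen for 4 of the 7 genes and for 19.7% of all genes tested (37.5% in either direction).

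**Figure D1:**
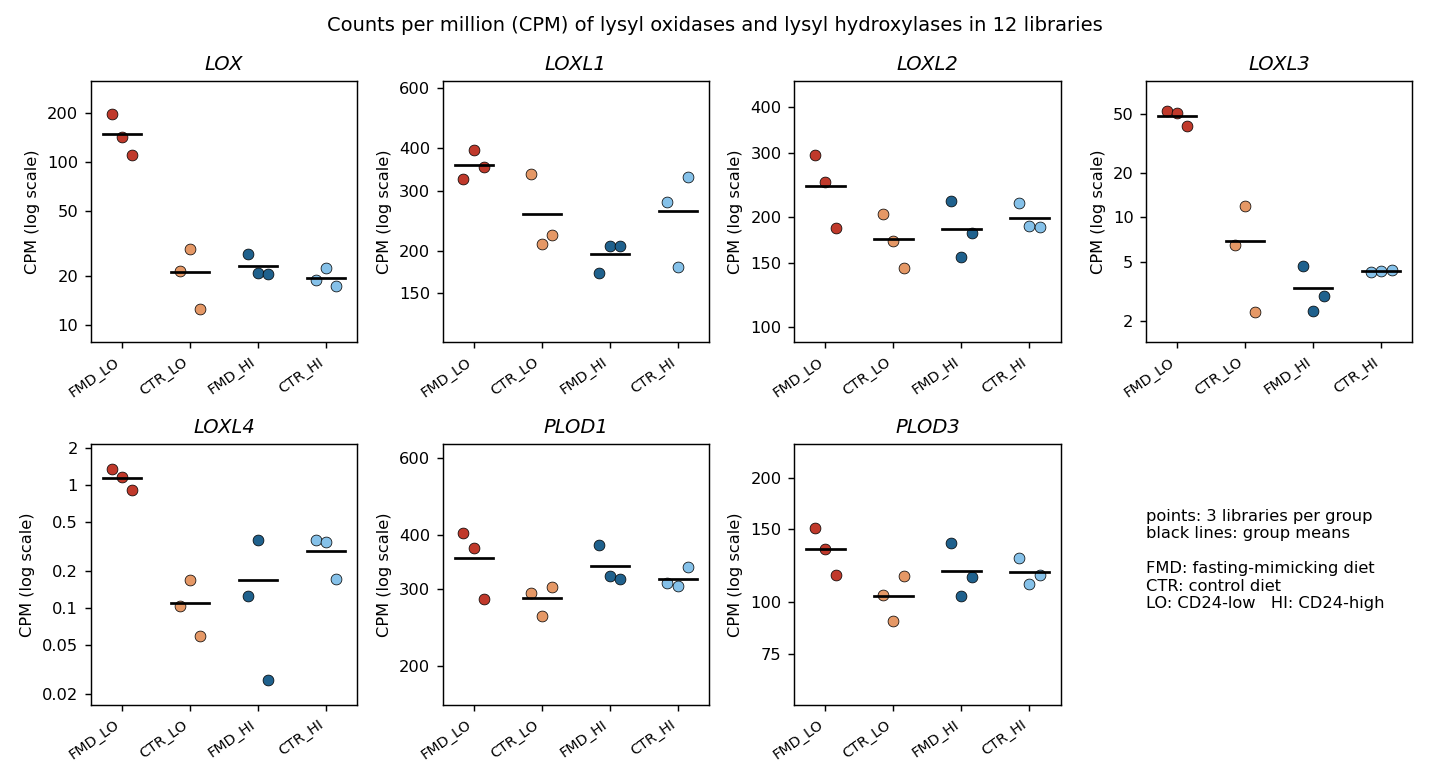
CPM of each of the 7 genes on a log axis, with 1 point per library and a black line at the mean of the 3 libraries of a group. LOX, LOXL3 and LOXL4 sit highest in the FMD_LO libraries, whereas LOXL1, LOXL2, PLOD1 and PLOD3 overlap between most groups.

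In CD24-high cells the same comparison gave no call. LOX averaged 23 ± 3.86 CPM in FMD_HI and 19.6 ± 2.56 CPM in CTR_HI (log2 fold change 0.23, 95% interval -0.37 to 0.84, edgeR adjusted p = 0.979). LOXL3 averaged 3.32 ± 1.25 CPM in FMD_HI and 4.35 ± 0.0774 CPM in CTR_HI, and its interval, -1.39 to 0.61, spans both directions. LOXL4 had 4, 12 and 1 counts in FMD_HI, against 12, 10 and 6 in CTR_HI. The 95% interval of the LOXL4 log2 fold change, -2.21 to 0.66, spans both directions too, so none of the 3 is shown to be equal between the diets.
LOXL1 averaged 195 ± 20 CPM in FMD_HI and 262 ± 76.3 CPM in CTR_HI (log2 fold change -0.43 ± 0.22, edgeR adjusted p = 0.792). LOXL2 stood at 186 ± 33.5 CPM in FMD_HI and 198 ± 17.4 CPM in CTR_HI, PLOD1 at 339 ± 35.3 CPM in FMD_HI and 318 ± 17.5 CPM in CTR_HI, and PLOD3 at 119 ± 17.9 CPM in FMD_HI and 118 ± 8.9 CPM in CTR_HI. The groups overlapped for all 7 genes, whereas they lay apart for 9.19% of all genes (4.48% higher and 4.72% lower). Of all genes tested 0% were called by edgeR, 1042 had an unadjusted p below 0.05 and DESeq2 called 81, none of the 7 among them.

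Whether the diet difference itself differed between the populations was tested as an interaction. LOX (interaction log2 fold change 2.60 ± 0.40, edgeR adjusted p = 0.00384), LOXL3 (3.20 ± 0.63, adjusted p = 0.017) and LOXL4 (4.14 ± 0.94, adjusted p = 0.0245) passed, 3 of the 7 genes, all positive, where 4.13% of all genes were called (4.07% positive and 0.0517% negative). The call of LOX held in its 19 alternatives. The call of LOXL3 was lost without FMD_HI replicate 3 (adjusted p = 0.0579) and without the count filter (0.0558). That of LOXL4 was lost without any of 7 single libraries, namely FMD_LO replicate 1 (adjusted p = 0.0601) or 2 (0.0585), CTR_LO replicate 1 (0.0508) or 3 (0.0639), FMD_HI replicate 1 (0.0531), and CTR_HI replicate 1 (0.0658) or 2 (0.0507), and with libraries thinned to equal depth (0.075). Without FMD_HI replicate 2 the LOXL4 interaction was 5.28, with both strands counted it was 2.84, and without CTR_LO replicate 2 the LOXL3 interaction was 3.81. LOXL1, at 0.91 ± 0.31, missed the threshold (edgeR adjusted p = 0.138) but passed it when CTR_LO replicate 1 (0.0425) or CTR_HI replicate 2 (0.0326) was left out, with DESeq2 (0.0442) and with same-numbered libraries paired in a block within diet (0.0226). LOXL2 (0.58 ± 0.26), PLOD3 (0.37 ± 0.20) and PLOD1 (0.21 ± 0.19) had adjusted p from 0.297 to 0.679, and of these LOXL2 passed with that block (0.0371).

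**Figure D2:**
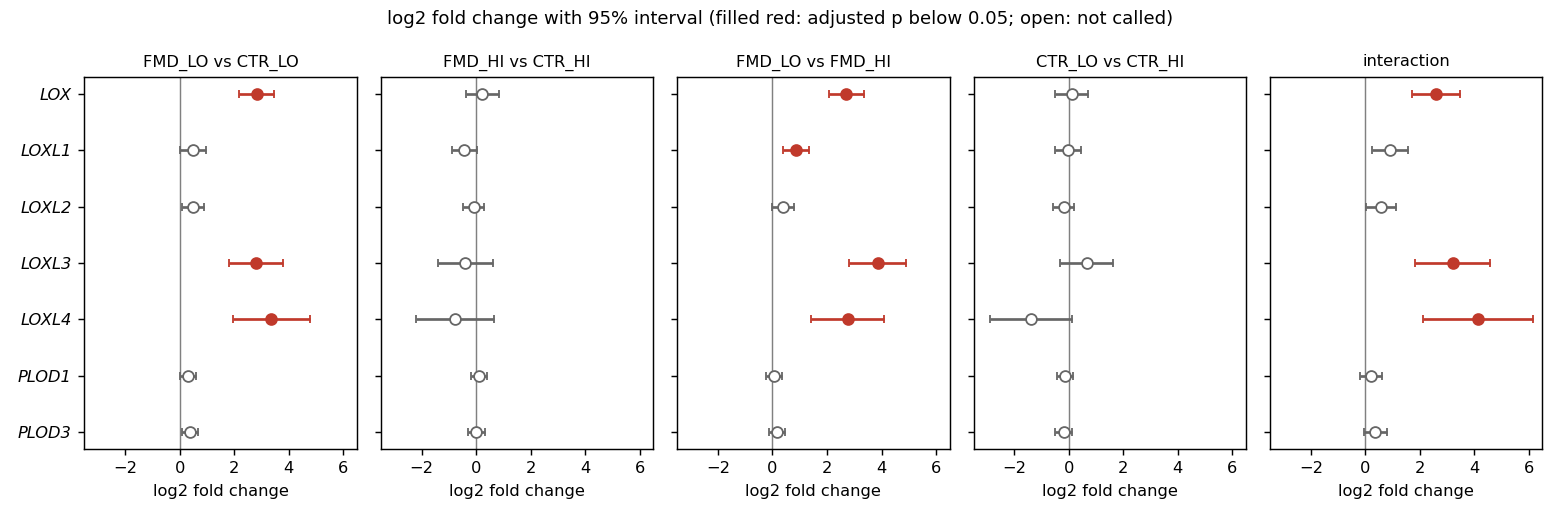
Log2 fold change of each gene in the 5 comparisons, with its 95% interval; filled red points have an adjusted p below 0.05 and open points do not. In FMD_LO vs CTR_LO all 7 intervals lie above 0, with those of LOX, LOXL3 and LOXL4 farthest out and alone past the adjusted threshold, and all 7 cross 0 in FMD_HI vs CTR_HI and in CTR_LO vs CTR_HI.

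The populations were compared within each diet. Under the fasting-mimicking diet, LOX, LOXL1, LOXL3 and LOXL4 were higher in CD24-low cells, 4 of 7 genes where 14% of all genes were called (12.2% higher and 1.84% lower). The same 4 had no overlap between the groups, as did 31.4% of all genes (18.3% higher). This comparison shares the FMD_LO libraries with the one between diets. LOX had 197, 142 and 111 CPM in FMD_LO, against 27.5, 21.0 and 20.6 CPM in FMD_HI (log2 fold change 2.71 ± 0.29, edgeR adjusted p = 7.96e-05). LOXL3 had 52.1, 50.8 and 41.7 CPM in FMD_LO, against 4.72, 2.31 and 2.94 CPM in FMD_HI (3.86 ± 0.48, adjusted p = 2.44e-04). LOXL4 had 60 counts over the 3 FMD_LO libraries and 17 over the 3 FMD_HI libraries (2.76 ± 0.63, adjusted p = 0.00835). FMD_HI replicate 2 held 12 of those 17, and without it the log2 fold change of LOXL4 was 3.90, while with both strands counted it was 2.01.
LOXL1 had 324, 394 and 353 CPM in FMD_LO, against 172, 207 and 206 CPM in FMD_HI, without overlap (0.87 ± 0.22, edgeR adjusted p = 0.0153). Its call was lost without FMD_LO replicate 2 (adjusted p = 0.0654) and without FMD_HI replicate 1 (0.0587). LOXL2 averaged 244 ± 54.8 CPM in FMD_LO and 186 ± 33.5 CPM in FMD_HI and was not called (0.39 ± 0.18, adjusted p = 0.193). With same-numbered libraries of this diet paired in a block, LOXL2 was called too (adjusted p = 0.0266), so that 5 of the 7 genes passed, and 4201 genes were called in place of 2163. PLOD1 (0.06 ± 0.14) and PLOD3 (0.17 ± 0.14) had 95% intervals of -0.23 to 0.36 and -0.14 to 0.47.

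Under the control diet none of the 7 genes was called between CTR_LO and CTR_HI, nor any other gene (0% called by edgeR, 91 with an unadjusted p below 0.05, none by DESeq2). LOX averaged 21.2 ± 8.44 CPM in CTR_LO and 19.6 ± 2.56 CPM in CTR_HI (log2 fold change 0.11, 95% interval -0.50 to 0.72). LOXL3 averaged 6.91 ± 4.83 CPM in CTR_LO and 4.35 ± 0.0774 CPM in CTR_HI, with CTR_LO replicate 2 the highest library outside FMD_LO. LOXL4 and PLOD1 had every CTR_LO library below every CTR_HI library, LOXL4 at 0.11 ± 0.0546 CPM in CTR_LO and 0.291 ± 0.104 CPM in CTR_HI, and PLOD1 at 286 ± 22.2 CPM in CTR_LO and 318 ± 17.5 CPM in CTR_HI; such a separation in this direction was seen in 1.47% of all genes (3.43% in either direction, 1.96% higher), and neither gene passed the test (adjusted p = 1 for both). The margins were thin. For LOXL4 the highest CTR_LO library had 0.168 CPM and the lowest CTR_HI library 0.172 CPM, and for PLOD1 they had 303.2 and 305.1 CPM. Over the 4 groups the order of the mean levels was FMD_LO, FMD_HI, CTR_LO, CTR_HI for LOX and FMD_LO, CTR_LO, CTR_HI, FMD_HI for LOXL3. The neighbours below FMD_LO overlapped in both genes.

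To set the oxidases beside each other, CPM were divided by the length of the merged exons of GENCODE 29, 2351 bases for LOXL1, 3549 for LOXL2, 5181 for LOX, 4120 for LOXL3 and 3653 for LOXL4. The authors' annotation release is not given in the sources used here, so the shares depend on that choice of length. LOXL1 and LOXL2 made up most of the family in every group. LOXL1 held 58.3% ± 6.91 of the summed length-scaled level of the 5 oxidases in FMD_LO, 66.2% ± 4.59 in CTR_LO, 59% ± 6.76 in FMD_HI and 63.8% ± 7.27 in CTR_HI.
LOX held 11% ± 2.6 in FMD_LO, against 2.55% ± 1.16 in CTR_LO, and 3.16% ± 0.507 in FMD_HI, against 2.3% ± 0.797 in CTR_HI. LOXL3 held 4.47% ± 0.168 in FMD_LO, against 1.05% ± 0.826 in CTR_LO. The lowest FMD_LO share of LOX, 9.17%, was above the highest share in any other library, 3.89%. The summed level of the 5 oxidases was 234 to 278 CPM per kb in FMD_LO, 138 to 206 in CTR_LO, 136 to 143 in FMD_HI and 135 to 197 in CTR_HI. On the same scale PLOD1 stood at 121 ± 20.8 CPM per kb in FMD_LO and 97.4 ± 7.55 in CTR_LO, and PLOD3 at 45.9 ± 5.98 in FMD_LO and 35.4 ± 4.43 in CTR_LO.

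**Figure D3:**
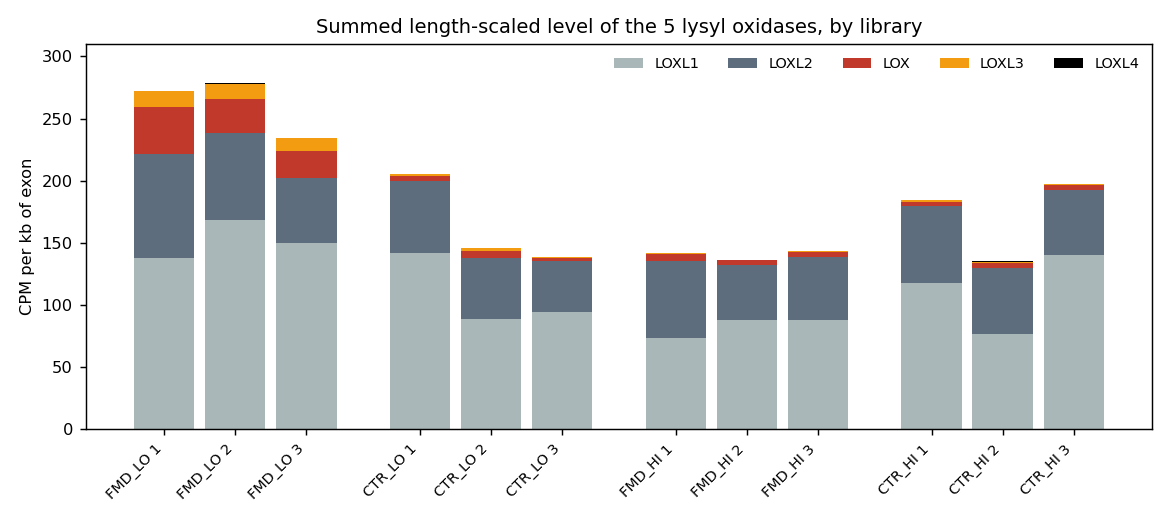
Level of the 5 lysyl oxidases in CPM per kb of merged exon, stacked for each of the 12 libraries; LOXL4 is too low to be seen in most bars. LOX and LOXL3 form a visible band in the FMD_LO libraries, where LOX holds 9.17% to 14% of the bar, and a thin one in the other 9, where it holds at most 3.89%.

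Other genes of collagen maturation were followed as lists, chosen with earlier results of these data known, and are given as counts, to be read against the 12% of all genes called higher and 4.33% called lower in FMD_LO against CTR_LO. Of 25 tested genes that modify, fold or trim procollagen, 8 rose and none fell in FMD_LO against CTR_LO, with a median log2 fold change of 0.23. BMP1, the protease that trims procollagen and activates the LOX proenzyme, averaged 555 ± 86.7 CPM in FMD_LO and 213 ± 21.8 CPM in CTR_LO (1.38 ± 0.17, edgeR adjusted p = 1.37e-04). P4HA1, a catalytic subunit of prolyl 4-hydroxylase, averaged 169 ± 47 CPM in FMD_LO and 71.5 ± 8.46 CPM in CTR_LO (1.24 ± 0.20, adjusted p = 0.001). SERPINH1, the collagen chaperone HSP47, averaged 1180 ± 232 CPM in FMD_LO and 681 ± 28.5 CPM in CTR_LO (0.80 ± 0.15, adjusted p = 0.00283).

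Of 23 fibrillar collagens, elastic fibre genes and their partners, the substrates of the oxidases among them, 11 rose and 2 fell, with a median of 1.14. Among all genes 12% were called higher and 4.33% lower. EFEMP2, or fibulin-4, which in mice brings LOX to elastin, averaged 94.5 ± 18 CPM in FMD_LO and 15.6 ± 7.55 CPM in CTR_LO (2.60 ± 0.31, edgeR adjusted p = 1.81e-04). MFAP2, a microfibril protein, averaged 5.29 ± 1.44 CPM in FMD_LO and 1.62 ± 0.296 CPM in CTR_LO (1.71 ± 0.26, adjusted p = 6.51e-04), and COL5A2, a chain of the type V collagen that starts fibrils, averaged 2650 ± 564 CPM in FMD_LO and 1200 ± 199 CPM in CTR_LO (1.14 ± 0.19, adjusted p = 0.00103). The 2 that fell were ELN, elastin itself, at 69 ± 20.8 CPM in FMD_LO and 136 ± 22.5 CPM in CTR_LO (-0.97 ± 0.20, adjusted p = 0.00472), and COL2A1 at 0.666 ± 0.176 CPM in FMD_LO and 1.62 ± 0.184 CPM in CTR_LO; both were named after their values were seen.

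Of 11 basement membrane genes, 2 rose and 1 fell in FMD_LO against CTR_LO, where 12% of all genes were called higher and 4.33% lower. PXDN, the peroxidase that cross-links collagen IV by another chemistry, averaged 9.24 ± 4.1 CPM in FMD_LO and 0.565 ± 0.707 CPM in CTR_LO (4.10 ± 0.74, edgeR adjusted p = 0.00285). NID1, a linker of basement membranes, rose (1.14 ± 0.27, adjusted p = 0.013), and COL4A6, a collagen IV chain, fell (-0.70 ± 0.20, adjusted p = 0.0284). The median of 9 copper genes was -0.18, and beside the same shares of all genes 2 of the 9 rose and none fell. They were ATP7A, the pump that loads copper into secreted oxidases, at 26.2 ± 6.42 CPM in FMD_LO and 9.05 ± 1.63 CPM in CTR_LO (1.53 ± 0.20, adjusted p = 2.02e-04), and SLC31A1, the copper importer, at 37.6 ± 6.65 CPM in FMD_LO and 25.5 ± 0.854 CPM in CTR_LO (0.56 ± 0.18, adjusted p = 0.0487). Of 5 tested genes of other matrix cross-linkers, PXDN and the transglutaminase TGM1 rose, the second at 5.56 ± 0.744 CPM in FMD_LO and 1.39 ± 0.124 CPM in CTR_LO (adjusted p = 0.00582).

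Genes of 2 pathways known to induce LOX were followed as well, again beside 12% of all genes called higher and 4.33% lower in FMD_LO against CTR_LO. Among 16 genes of the hypoxia response 5 were higher in FMD_LO than in CTR_LO and 0 lower, with a median of 0.56, among them the histone demethylase KDM3A (1.32 ± 0.17, edgeR adjusted p = 1.83e-04) and the glycolytic enzyme PGK1 (1.17 ± 0.16, adjusted p = 2.34e-04). P4HA1, counted above among the procollagen genes, was another of these 5. Of the 16 genes, 12 had a positive log2 fold change in this comparison. In FMD_HI against CTR_HI 15 of the 16 were positive, none was called and the median was 0.36. In FMD_LO against FMD_HI 3 of these 16 rose, where 12.2% of all genes did, and the median was -0.13. The part of this pathway in the level of LOX was not tested. Of 13 TGF-beta ligands, receptors and targets, 6 rose and none fell in FMD_LO against CTR_LO, with a median of 0.38. The signal transducer SMAD4 (0.75 ± 0.12, adjusted p = 0.00116), the SMAD corepressor SKIL (1.11 ± 0.23, adjusted p = 0.00552) and the ligand TGFB3 (1.08 ± 0.25, adjusted p = 0.0119) had the smallest p among them.

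**Figure D4:**
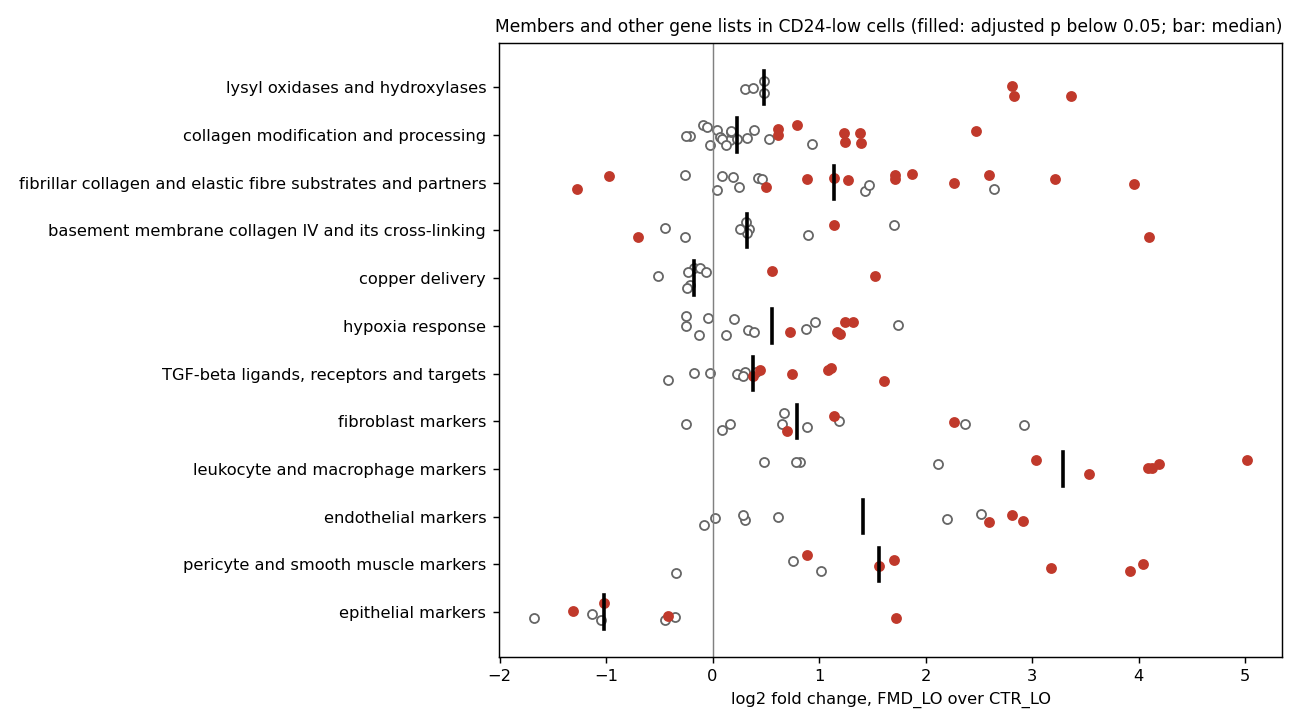
Log2 fold change in FMD_LO over CTR_LO of the 7 genes and of the tested members of 11 lists, with filled points for an adjusted p below 0.05 and a black bar at each median. LOX, LOXL3 and LOXL4 lie between 2.81 and 3.36, apart from the other members at 0.31 to 0.49, and leukocyte markers have the highest median.

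Part of the markers of other cell types were also called in FMD_LO against CTR_LO, where 12% of all genes were called higher and 4.33% lower. Of 10 tested leukocyte and macrophage markers, 6 rose and none fell in FMD_LO against CTR_LO, with a median log2 fold change of 3.29, and the summed level of all 13 was 164 to 192 CPM in FMD_LO, 22.3 to 38 CPM in CTR_LO, 40.2 to 59.4 CPM in FMD_HI and 28.9 to 45.6 CPM in CTR_HI. PTPRC, SPI1 and CSF1R were among the 6, while TYROBP, an adaptor of myeloid cells, had no count in FMD_LO. Of 12 fibroblast markers 3 rose (PDGFRA, MFAP5 and FAP), the median was 0.79, and the sum was 2580 to 3600 CPM in FMD_LO, 1500 to 2820 CPM in CTR_LO, 1540 to 1940 CPM in FMD_HI and 1480 to 2520 CPM in CTR_HI. Of 9 pericyte and smooth muscle markers 6 rose, with MYH11, RGS5 and DES at the smallest p, and the sum was 790 to 1210 CPM in FMD_LO, 469 to 729 CPM in CTR_LO, 399 to 539 CPM in FMD_HI and 414 to 792 CPM in CTR_HI.
Of 10 tested endothelial markers 3 rose (TEK, KDR and FLT1), and the sum of all 12 was 50.6 to 105 CPM in FMD_LO, 32.4 to 42.1 CPM in CTR_LO, 32.1 to 36.6 CPM in FMD_HI and 29 to 36.5 CPM in CTR_HI. Of 9 tested epithelial markers KRT5, KRT14 and KRT18 fell and KRT19 rose (KRT14 named after its value was seen), and the sum of all 12 was 2660 to 4930 CPM in FMD_LO, 7100 to 8160 CPM in CTR_LO, 3920 to 7070 CPM in FMD_HI and 5820 to 8590 CPM in CTR_HI. In FMD_LO against FMD_HI, where 12.2% of all genes were called higher and 1.84% lower, 6 of the 12 fibroblast markers rose (median 2.22). There 7 of 9 pericyte and smooth muscle markers rose and 1 fell (median 2.64). Endothelial markers rose in 5 of 10 (median 2.41) and leukocyte markers in 5 of 10 (median 1.94). Among 9 epithelial markers 1 rose and 1 fell (median -0.44). The files do not separate reads of the mouse host from those of tumour cells, and the part of these cell types in the levels of LOX, LOXL3 and LOXL4 was not tested. In bulk libraries a change in the number of cells of a type and a change of RNA per cell cannot be told apart.

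Genes most alike in pattern were taken by Pearson's r of log2 CPM over the 12 libraries, among 8548 protein-coding genes with a mean of at least 10 CPM (8549 for LOXL4). Since the FMD_LO libraries stand apart and dominate this measure, r over the other 9 libraries is given beside it. For LOX they were SH3GLB1 (r = 0.992, and 0.932 without FMD_LO), GNAS (0.989 and 0.889) and RBPJ (0.989 and 0.862). For LOXL3 they were the adhesion gene CDH11 (0.991 and 0.962), the smooth muscle actin gene ACTG2 (0.989 and 0.924) and the matrix glycoprotein gene THBS2 (0.986 and 0.895). For LOXL1 they were the elastic fibre gene EMILIN1 (0.977 and 0.967), MXRA8 (0.972 and 0.96) and SCG2 (0.967 and 0.938).
LOXL2 was most like BTBD9 (0.891 and 0.789), KPNA3 (0.878 and 0.894) and RUSC2 (0.878 and 0.685), and LOXL4 most like BAZ2B (0.924 and 0.692), PPM1A (0.923 and 0.712) and THOC2 (0.916 and 0.659). PLOD1 was most like MICAL1 (0.921 and 0.896), PNMA1 (0.909 and 0.849) and REPIN1 (0.907 and 0.933), and PLOD3 most like MSN (0.938 and 0.922), ECE1 (0.908 and 0.862) and CPD (0.901 and 0.871). These are descriptions over libraries that share depth and group, with no test.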

How the data were processed

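The deposited values were raw counts of reads per gene symbol, 1 file per library, made by the authors with STAR on hg38 per the submitters' processing notes; the STAR version and annotation are not given in the sources used here. RNA (500 ng) went into a stranded mRNA kit, per the labels, so the reverse-strand counts were used; 1.59% to 1.75% of reads lay on the opposite strand. Reads of the mouse host were not separated here.

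One edgeR 4.0.16 model in R 4.3.3 held all 4 groups (quasi-likelihood, robust, TMM scaling, filter by group; 15461 of 26475 genes kept, 8 residual degrees of freedom), and p-values were Benjamini-Hochberg adjusted over all genes tested. The standard error is the absolute log2 fold change over the square root of F. The pipeline was tested on simulated data. The fit was repeated with DESeq2 1.42.0, without the count filter, with unstranded counts, with RLE in place of TMM, on the compared groups alone, with blocks for replicate number, after thinning to equal depth and without each of the 12 libraries in turn. All 7 genes are named in every comparison, with up to 3 called genes of smallest p per list and 3 genes most alike in pattern. Genes and lists were chosen with earlier results of these data known.

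Same-numbered libraries deviated together under the fasting-mimicking diet, a pairing read from the data and not from the labels. The correlation of deviations from group means was 0.285 to 0.485 between FMD_LO and FMD_HI, against -0.372 to -0.0376 for unlike numbers. Deviations in a group of 3 cancel out, so positive values for like numbers push those for unlike numbers down. The contrast between like and unlike numbers is therefore partly built in. Between CTR_LO and CTR_HI the values were 0.445, 0.522 and 0.0373, against -0.549 to 0.171 for unlike numbers, so that 2 of 3 pairs deviated together. Between diets same-numbered libraries of a population gave -0.221 to 0.0824. Depth limits precision mainly for LOXL4. Positions and lengths came from GENCODE 29 and promoters from RefSeq, with windows searched for 6 of the 7 genes.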

Additional observations from a re-analysis of the deposited data

Results flagged for a closer look

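The diet difference of 3 genes differed between CD24-low and CD24-high cells by the interaction test of edgeR (adjusted over all genes). LOX had an interaction log2 fold change of 2.595, higher in 3 of 3 FMD_LO libraries than in each CTR_LO library and with overlap between FMD_HI and CTR_HI. LOXL3 had 3.2 and LOXL4 had 4.141, with the same pattern of libraries. The summed leukocyte markers moved in the same libraries, at 164 to 192 CPM in FMD_LO and 22.3 to 38 CPM in CTR_LO. Summed pericyte and smooth muscle markers (790 to 1210 against 469 to 729 CPM) and endothelial markers (50.6 to 105 against 32.4 to 42.1 CPM) were higher too. Epithelial markers were lower (2660 to 4930 against 7100 to 8160 CPM), and fibroblast markers overlapped (2580 to 3600 against 1500 to 2820 CPM). The part of these cell types in these 3 results was not tested.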

How the results depend on the processing

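The calls of LOX, LOXL3 and LOXL4 in FMD_LO against CTR_LO and against FMD_HI held in every alternative run for them, and the log2 fold change of LOX in FMD_LO over CTR_LO ranged from 2.57 to 3.12, that of LOXL3 from 2.40 to 3.42 and that of LOXL4 from 2.43 to 3.70; over FMD_HI they ranged from 2.45 to 2.87, 3.45 to 4.21 and 2.01 to 3.90 for LOX, LOXL3 and LOXL4 in this order. The 3 calls in FMD_LO against CTR_LO became 3 to 5 without single libraries, 5 without FMD_LO replicate 3. The genes called overall in that comparison were 1562 to 2795. The lowest counts were 1662 when FMD_LO replicate 1 was left out, 1562 when FMD_LO replicate 2 was and 1577 when CTR_LO replicate 3 was. In FMD_HI against CTR_HI the genes called were 81 with DESeq2, 1 without the count filter, 1 with a replicate block, and 0 to 1 without single libraries. For the interaction DESeq2 called 1156 genes, and single libraries left out gave 380 to 767 (380 for FMD_LO replicate 2, 403 for FMD_HI replicate 2, 409 for CTR_LO replicate 3 and 412 for FMD_LO replicate 1). With a replicate block within diet, 1702 genes and 5 of the 7 members (LOXL1 and LOXL2 added) passed for the interaction and 4201 genes in FMD_LO against FMD_HI. Same-numbered libraries deviated together in all 3 pairs under the fasting-mimicking diet and in 2 of 3 under the control diet, as read from these same data. With a replicate block over both diets 2867 genes and 4 members passed in FMD_LO against CTR_LO, although like numbers were not seen to deviate together between diets.

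Small, uncalled log2 fold changes turned sign without single libraries: in CTR_LO against CTR_HI LOX ranged from -0.19 to 0.36 and LOXL1 from -0.27 to 0.15, in FMD_HI against CTR_HI LOXL2 from -0.23 to 0.035 and PLOD3 from -0.10 to 0.12, and in FMD_LO against FMD_HI PLOD1 from -0.053 to 0.18. The causes were not tested. Depth limits LOXL4, whose counts were 1 to 23 per library.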
